A study of Homo sapiens with 6 samples.

Results

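The peptides of focal adhesion signalling on this kinome array were those whose listed protein is FAK, Pyk2, PXN, Cbl, Crk or Fyn. They were chosen by the protein's name, with earlier results of these arrays known. They make up 6 of the 202 human proteins listed and 7 of 298 human peptides (300 in all). Fyn was represented at 2 sites, Y420 and Y531. FAK (Q05397, gene PTK2) was represented at Y397, Pyk2 (Q14289, PTK2B) at Y402, paxillin (PXN, P49023) at Y31, Cbl (P22681, CBL) at Y371 and Crk (P46108, CRK) at Y221. The 6 arrays were incubated with lysates of the human monocytic leukaemia line THP-1, which had been made macrophage-like with the phorbol ester PMA for 24 h and rested for 24 h in fresh medium. All groups shared this treatment, and no array of undifferentiated cells was used here. Of 2 arrays each, one group was left unstimulated, one received 20 ng/ml of recombinant human IL-32γ and one 20 ng/ml of recombinant human IL-17A/F, both for 15 min (called IL-32 and IL-17 here). Whether the cells were macrophages cannot be read from printed peptides, which carry no record of the proteins the cells contained.

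FAK and Pyk2 are related tyrosine kinases that are switched on where integrins or calcium signals engage the cell. Each first phosphorylates itself, which makes a docking site for a Src-family kinase such as Fyn, and the pair then phosphorylates scaffolds such as paxillin. Phosphorylated paxillin recruits the adaptor Crk, and Cbl, a ubiquitin ligase, tags active tyrosine kinases for removal. Macrophages use Pyk2 and FAK when they adhere, spread and migrate. A value here is the phosphorylation of a short printed peptide by the kinases of a lysate. It is read with a phosphoprotein dye, so it is not the phosphorylation of the protein in the cell, and any kinase that accepts the peptide contributes.

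The peptides differed first in whether they gave a signal at all. Each was printed in 3 spots, so 18 spots per peptide were read over the 6 arrays, each as a mean foreground intensity and a mean local background. All 18 spots of FAK Y397, Pyk2 Y402, PXN Y31 and Cbl Y371 were brighter than their local background. Fyn Y531 passed in 15 of 18 spots and Fyn Y420, in the activation loop of that kinase, in 10 of 18. Crk Y221 passed in 0 of 18. Over the whole array, 158 of 298 peptides passed in all 18 spots and 53 in none. These ratios compare different probes with their own surroundings and give no order of kinase activity.

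**Figure D1:**
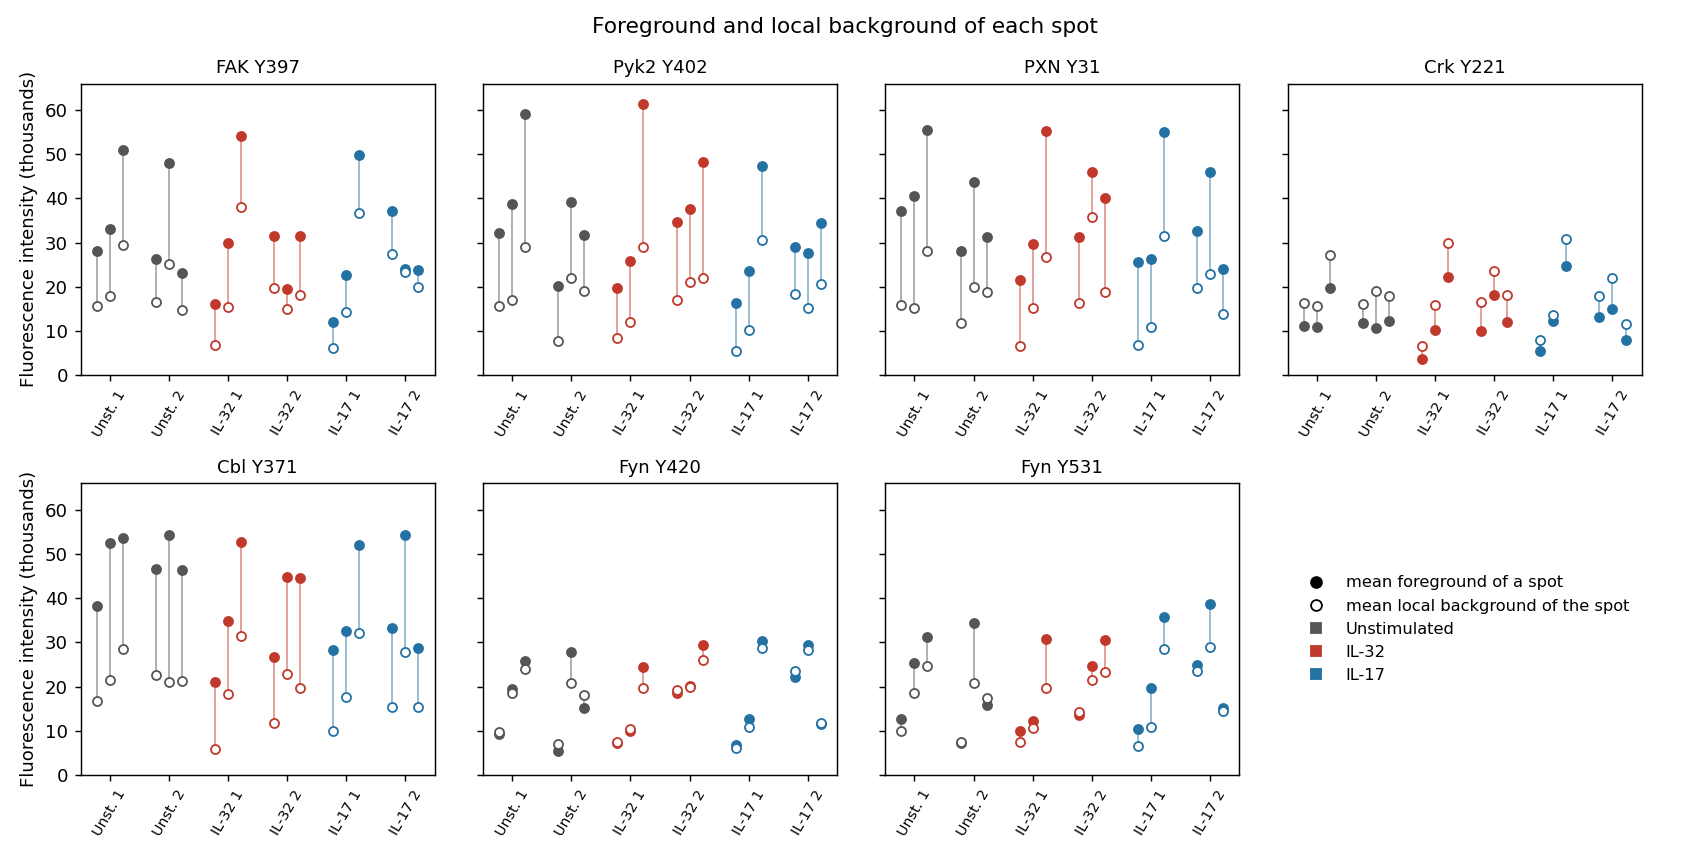
Mean foreground (filled) and mean local background (open), in fluorescence units, of each of the 3 spots of the 7 peptides, in listed order, on each of the 6 arrays (Unst., unstimulated; the number is the replicate). Crk Y221 lies below its background in all 18 spots, Fyn Y420 lies close to it, and background varies several-fold between spots of one peptide on the replicate 1 arrays of both cytokines.

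Signal over background was modest even for the bright peptides. The ratio of foreground to background in single spots had a median of 2.11 for Cbl Y371 (1.62 to 3.63), 2.06 for Pyk2 Y402 (1.55 to 3.03), 2.03 for PXN Y31 (1.29 to 3.80) and 1.59 for FAK Y397 (1.03 to 2.34). It was 1.27 for Fyn Y531 (0.904 to 1.83), 1.03 for Fyn Y420 (0.765 to 1.34) and 0.685 for Crk Y221 (0.556 to 0.897). The FAK spot at 1.03 had a foreground of 24018 and a background of 23291, on the IL-17 array of replicate 2. Crk Y221, the tyrosine that folds Crk onto its own SH2 domain when phosphorylated, therefore has no fold change in any comparison. Counts of directions below are over the other 6 peptides, called those with signal. The name means any spot above background. Fyn Y420 is counted among them, though with 10 of 18 spots and a median ratio of 1.03 it was barely told from background.

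For comparisons, intensities were background-corrected with normexp, put on the log2 scale, quantile-normalized and averaged over the 3 spots. Levels and differences below are on that scale, and each difference is set against the rest of the array, since normalization removes a shift shared by all peptides. Errors of differences are standard errors (SE) of limma's fit over all 6 arrays, and 95% intervals come from the same fit. Correlations between arrays over all peptides ran from 0.873 to 0.961. The median ratio of foreground to background ran from 1.16 to 1.34 over the arrays, and local background at the first listed spots had a median between 6978 and 22915.

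The first question of the study was what IL-32 changed within 15 min. None of the 7 peptides passed the adjusted threshold of 0.05, and 0 of 298 on the array did (0%, limma, Benjamini-Hochberg, smallest adjusted p = 0.996). At an unadjusted p under 0.05, 0 of the 7 and 4 of 298 passed (1.34%). The study's own criteria, over 1.5-fold with p under 0.06, were met by 0 of the 7 and 0 of 298 (0%) on this scale. With limma on the authors' deposited table of background-subtracted signal, 0 of the 7 and 3 of 298 met them. Of the 6 values with signal 3 were higher, beside 48.7% over the array. Shares over the array, here and below, count all 298 peptides, 53 of which had no spot above background. Of these peptides, Cbl Y371 had the smallest p, and Pyk2 Y402 had the largest difference.

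Cbl Y371 lies in the linker of the ubiquitin ligase, and its phosphorylation is known to switch ligase activity on. Its log2 level was 12.81 and 12.87 on the unstimulated arrays and 12.51 and 12.71 on the IL-32 arrays. Both IL-32 arrays were thus lower than both unstimulated arrays. The log2 difference was -0.23 ± 0.10 (SE, n = 2 arrays per group; 95% interval -0.47 to 0.01; limma adjusted p = 0.996), with -0.29 between the replicate 1 arrays and -0.17 between those of replicate 2. It was -0.12 without the IL-32 array of replicate 1 and 0.07 with foreground divided by background. In 2 of 6 pairs of matching spots the IL-32 spot was the higher one.

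Pyk2 Y402 is the autophosphorylation site of this kinase and the place where Src-family kinases dock. Its log2 level was 12.59 and 12.01 on the unstimulated arrays, 12.63 and 12.70 on the IL-32 arrays and 12.40 and 12.29 on the IL-17 arrays. The unstimulated arrays lay 0.58 apart, more than the arrays of any other group for any of the 7 peptides. For IL-32 the log2 difference was 0.37 ± 0.19 (SE, n = 2 per group; 95% interval -0.10 to 0.83; limma adjusted p = 0.996), the fourth largest in size of 298. It was 0.04 between the replicate 1 arrays and 0.69 between the replicate 2 arrays. Without the unstimulated array of replicate 2 it was 0.07, and without that of replicate 1 it was 0.68. On this scale the size of the difference thus rests on which unstimulated array is used. In the authors' deposited table it was 0.26 and 0.63 at the 2 replicate numbers. The average there was 0.44 (limma unadjusted p = 0.116).

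**Figure D2:**
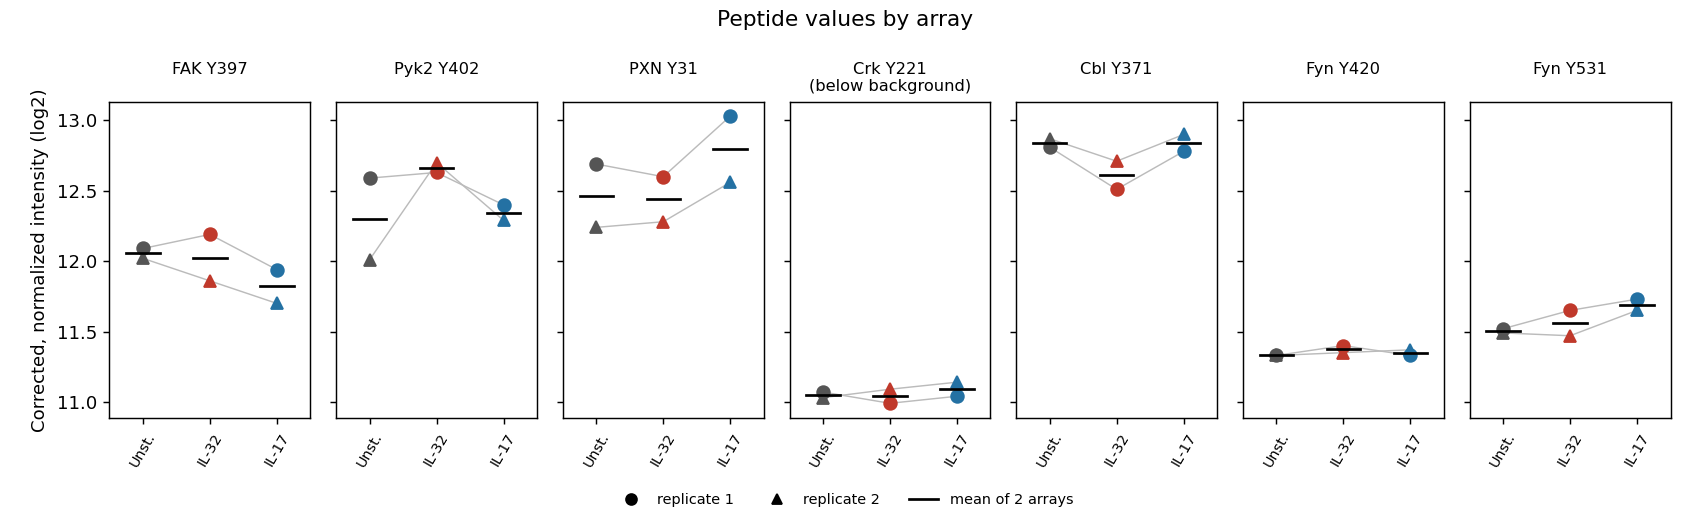
Background-corrected and quantile-normalized log2 intensity of the 7 peptides on the unstimulated (Unst.), IL-32 and IL-17 arrays; circles are replicate 1, triangles replicate 2, grey lines join arrays with the same replicate number and bars are means of 2 arrays. Pyk2 Y402 has 0.58 between its unstimulated arrays, and both arrays of Cbl Y371 after IL-32 lie below the unstimulated ones.

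The other 4 peptides with signal showed small differences after IL-32 on the normexp scale. FAK Y397, the autophosphorylation site of FAK and its docking site for Src kinases, stood at log2 12.09 and 12.02 on unstimulated arrays and at 12.19 and 11.86 on IL-32 arrays, which enclosed the unstimulated values. Its difference was -0.03 ± 0.14 (SE, limma; 95% interval -0.37 to 0.31). PXN Y31, a site that FAK and Src phosphorylate and to which Crk binds, stood at 12.69 and 12.24 on unstimulated and 12.60 and 12.28 on IL-32 arrays, with a difference of -0.03 ± 0.22. Its replicates lay farther apart than its groups.

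Fyn is a Src-family kinase that is active when the loop tyrosine Y420 carries phosphate and is held closed when the tail tyrosine Y531 does, a mark set by Csk. Fyn Y420 stood at 11.33 on both unstimulated arrays and at 11.40 and 11.35 on the IL-32 arrays. Its difference was 0.05 ± 0.07. In the authors' deposited table, from values near the floor, it was 1.51 and 0.37 at the 2 replicate numbers. The average there was 0.94 (limma unadjusted p = 0.565). Fyn Y531 stood at 11.52 and 11.49 on unstimulated and 11.65 and 11.47 on IL-32 arrays. Its difference was 0.06 ± 0.09, with opposite signs at the 2 replicate numbers (0.13 and -0.02). The authors' deposited table gave Fyn Y531 0.44 and -0.17. Plain subtraction floored at 1 gave 1.95 (limma unadjusted p = 0.580), with spots of both groups at the floor.

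Groups of 2 arrays did not overlap for 3 of the 6 peptides with signal after IL-32 (Cbl Y371, Pyk2 Y402 and, close to its background, Fyn Y420), beside 24.5% of the 298. The 95% interval lay within 1.5-fold in both directions for 5 of the 6 peptides with signal, all but Pyk2 Y402, beside 90.9% over the array. These intervals hold for the normexp scale only. In background-subtracted signal, some differences after IL-32 were past 1.5-fold. They were Fyn Y420 in the authors' deposited table (0.94) and Fyn Y531 with plain subtraction floored at 1 (1.95). The folds of FAK Y397 and Fyn Y531 after IL-17 were also larger in background-subtracted signal, as given below.

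The IL-32 differences depended on which of the 3 spots was read, for these peptides and for the array as a whole. At the second listed spot all 6 peptides with signal were lower after IL-32, from -0.66 (PXN Y31) to -0.06 (Pyk2 Y402). At the third listed spot all 6 were higher, from 0.18 (FAK Y397) to 0.87 (Pyk2 Y402), and at the first 4 were higher and 2 lower. Among the 158 peptides with every spot above background, 15.2% were higher at the second spot and 79.7% at the third, with medians of -0.22 and 0.14. The shift at a listed spot was thus shared by most of the bright peptides. With quantile normalization within each listed spot, Pyk2 Y402 was at 0.31, Cbl Y371 at -0.14, and no peptide passed.

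The second question was what IL-17 changed. None of the 7 peptides passed the adjusted threshold, and 0 of 298 did (0%, limma, Benjamini-Hochberg, smallest adjusted p = 0.997). At an unadjusted p under 0.05, 0 of the 7 and 0 of 298 passed (0%), and 0 of 298 met the study's criteria (0%). With limma on the authors' deposited table, 0 of the 7 and 1 of 298 met these criteria. Of the 6 values with signal 5 were higher and 1, FAK Y397, was lower, beside 52.7% higher over the array. Values had the same sign at both replicate numbers for 4 of the 6 (38.6% over the array), which were Fyn Y420, Fyn Y531, PXN Y31 and FAK Y397.

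Fyn Y531 stood at log2 11.52 and 11.49 on the unstimulated and 11.73 and 11.65 on the IL-17 arrays, without overlap. Its difference was 0.19 ± 0.09 (SE, n = 2 per group; 95% interval -0.03 to 0.41; limma adjusted p = 0.997), with 0.21 and 0.17 at the 2 replicate numbers. The IL-17 spot was the higher one in all 6 pairs of matching spots. At listed spots 1, 2 and 3 the difference was 0.14, 0.22 and 0.21. Of the 158 peptides with every spot above background, 83.5%, 31.6% and 41.8% were higher after IL-17 at these spots. Leaving out any 1 array gave 0.16 to 0.24, and the sign was kept under every alternative other than no normalization, where it was -0.42.

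On the linear scale of the authors' deposited table, the signal of Fyn Y531 was 0.374 and 0.306 in unstimulated cells, 0.716 and 0.492 after IL-17 and 0.506 and 0.272 after IL-32. In that table a value is background-subtracted signal over a constant of the array. Both IL-17 values in the authors' deposited table were above both unstimulated values, with log2 differences of 0.94 and 0.69 at the 2 replicate numbers and 0.81 on average. This is past 1.5-fold (0.585 on the log2 scale), but limma on the authors' deposited table gave an adjusted p of 1 and an unadjusted p of 0.137. With plain subtraction floored at 1 the log2 difference was 4.29 (limma unadjusted p = 0.263), with 2 of 6 unstimulated spots below their background and so at the floor. The fold therefore depended on the scale, while the sign was shared.

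Fyn Y420 was near background. Its levels were 11.33 on both unstimulated and 11.33 and 11.37 on the IL-17 arrays, and its difference was 0.02 ± 0.07 (SE, limma). In the authors' deposited table it ran from the floor of 0.01 (IL-17, replicate 2) to 0.142 (IL-32, replicate 1).

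FAK Y397 stood at 12.09 and 12.02 on unstimulated and at 11.94 and 11.70 on the IL-17 arrays, which were both lower. Its difference was -0.23 ± 0.14 (SE, n = 2 per group; 95% interval -0.57 to 0.10; limma adjusted p = 0.997), with -0.15 and -0.32 at the 2 replicate numbers. It was -0.12 without the IL-17 array of replicate 2, which had the lowest ratio of foreground to background for this peptide (1.20, against 1.48 to 1.78 on the other 5 arrays). That array also had the lowest median ratio over all spots, 1.16. The part of this array in the result was not tested. By listed spot, FAK Y397 was at 0.07, -0.67 and -0.09, so the second spot gave most of the difference. It was -0.55 in the authors' deposited table and -0.66 with plain subtraction floored at 1.

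PXN Y31 had the largest positive difference after IL-17 among the 7, and also a wide spread. Its levels on the IL-17 arrays were 13.03 and 12.56, against 12.69 and 12.24 on unstimulated arrays, so the groups overlapped. Replicate 2 was lower than replicate 1 in all 3 groups, by 0.45 in unstimulated, 0.46 in IL-17 and 0.31 in IL-32 arrays. The difference was 0.33 ± 0.22 (SE; 95% interval -0.21 to 0.87; limma adjusted p = 0.997), with 0.33 and 0.32 at the 2 replicate numbers. Leaving out single arrays moved it between 0.09 (without the unstimulated array of replicate 2) and 0.58 (without that of replicate 1), and it was -0.05 without background subtraction. With the replicate number as a block, limma's unadjusted p for this difference was 0.0082 (adjusted p = 0.998), beside 0.188 unadjusted without the block.

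Cbl Y371 and Pyk2 Y402 showed little difference after IL-17. Cbl Y371 stood at 12.78 and 12.90 on IL-17 arrays, which enclosed the unstimulated values, and its log2 difference was 0.0008 ± 0.10 (95% interval -0.24 to 0.24). Pyk2 Y402 gave 0.05 ± 0.19, with -0.19 and 0.28 at the 2 replicate numbers. Groups did not overlap for 3 of the 6 peptides with signal (FAK Y397, Fyn Y531 and, by less than the digits printed, Fyn Y420), beside 17.1% of the 298. On the normexp scale, the 95% interval lay within 1.5-fold both ways for 5 of the 6 with signal, all but PXN Y31 (91.6% over the array).

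All differences from unstimulated cells above depend on the normalization between arrays. Without it, the median peptide of the array lay 0.59 lower after IL-17 and 0.24 lower after IL-32, and 293 of 298 peptides passed as lower for IL-17, among them 5 of the 6 with signal, all but PXN Y31. Relative to that median shift, FAK Y397 at -0.88 was lower than the typical peptide, and Fyn Y531 at -0.42 and PXN Y31 at -0.42 were less lowered than it. Fyn Y420 was at -0.54, Pyk2 Y402 at -0.65 and Cbl Y371 at -0.77.

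**Figure D3:**
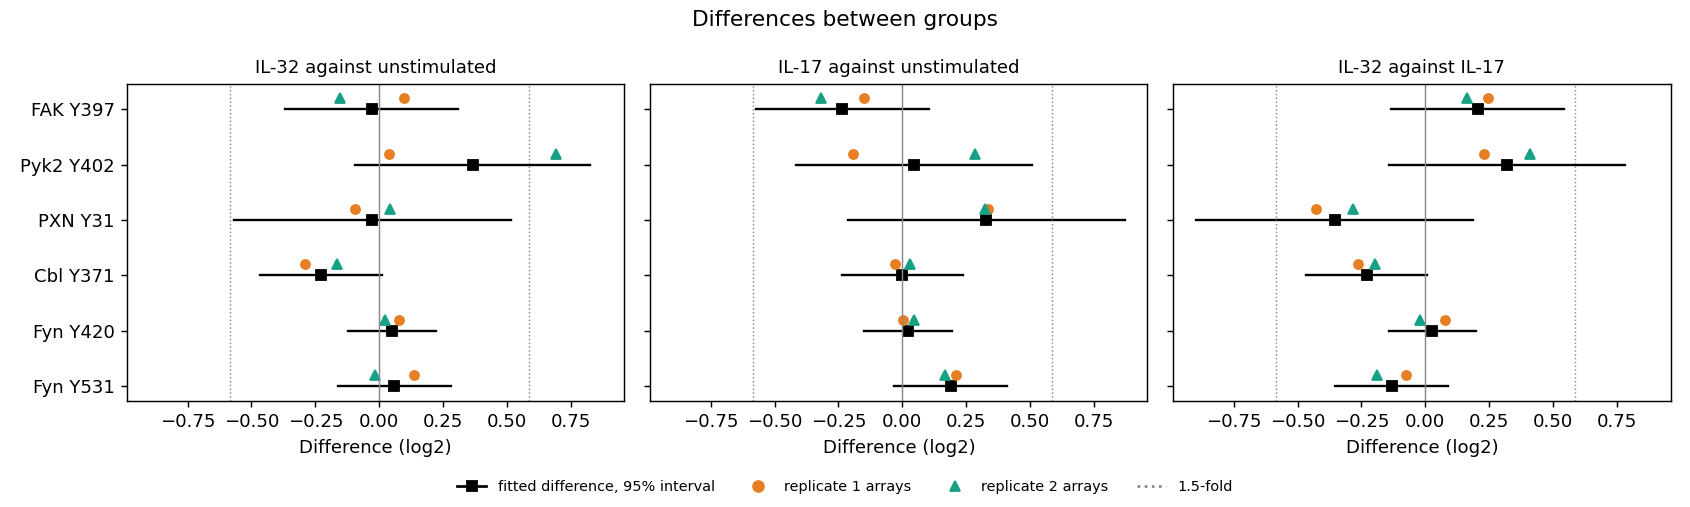
Log2 differences of the 6 peptides with signal in the 3 comparisons: squares with lines are limma's fitted differences with 95% intervals (n = 2 arrays per group), circles and triangles the differences between arrays of replicate 1 and of replicate 2, dotted lines 1.5-fold either way. Every interval includes 0; that of Cbl Y371 for IL-32 ends at 0.01.

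The direct comparison of the cytokines used arrays of IL-32 and IL-17 and tests whether their effects differed. None of the 7 peptides passed the adjusted threshold, and 0 of 298 did (0%, limma, smallest adjusted p = 0.997). At an unadjusted p under 0.05, 0 of the 7 and 4 of 298 passed (1.34%). The study's criteria were met by 0 of 298 (0%), and with limma on the authors' deposited table by 0 of the 7 and 3 of 298. Values had the same sign at both replicate numbers for 5 of the 6 with signal, all but Fyn Y420, beside 47% over the array. Of the 6 values 3 were higher after IL-32 than after IL-17 (49.3% over the array), those of both focal adhesion kinases and of Fyn Y420.

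The autophosphorylation peptides of both focal adhesion kinases stood higher after IL-32. FAK Y397 differed by 0.20 ± 0.14 (SE, n = 2 per group; 95% interval -0.13 to 0.54), with 0.25 and 0.16 at the 2 replicate numbers, and the groups overlapped. Without the IL-32 array of replicate 1 it was 0.04. It was 0.48 in the authors' deposited table and 0.60 with plain subtraction floored at 1. Of the 18 differences of the 6 peptides with signal, this was the 1 that kept its sign under all 21 alternatives tried. Of these, 3 cannot change a difference, and others had little room to. Leaving out an unstimulated array acts here only through the normalization and gave 0.20 for either array, and normexp with offset 10 gave 0.21. Without normalization FAK Y397 was at 0.69, where the whole array was shifted upwards. The kept sign is thus a description. Pyk2 Y402 differed by 0.32 ± 0.19 (95% interval -0.14 to 0.78), with 0.23 and 0.41, and its groups did not overlap. By listed spot it was 0.12, -0.04 and 0.88, and with foreground divided by background it was 0.02. The limma adjusted p was 0.997 for each. Without normalization, where the median peptide lay 0.36 higher after IL-32 than after IL-17, 4 of 298 peptides passed, and Pyk2 Y402 at 0.87 was the 1 among the 7 (limma adjusted p = 0.0421).

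Paxillin, Cbl and the Fyn tail site stood lower after IL-32 than after IL-17. PXN Y31 differed by -0.36 ± 0.22 (95% interval -0.90 to 0.19), the fourth largest in size of 298, with -0.43 and -0.28, and its groups overlapped. It was -0.13 without the IL-17 array of replicate 1 and 0.12 without background subtraction. With the replicate number as a block, limma's unadjusted p for PXN Y31 was 0.0058 (adjusted p = 0.994), beside 0.159 unadjusted without the block. Cbl Y371 differed by -0.23 ± 0.10 (95% interval -0.47 to 0.01), with -0.26 and -0.20 and no overlap. It was -0.05 with quantile normalization within each listed spot, and -0.12 without the IL-32 array of replicate 1. Fyn Y531 differed by -0.13 ± 0.09 (95% interval -0.35 to 0.09), and its groups were apart by less than the digits printed. It differed by -0.04 without the IL-32 array of replicate 2. In the authors' deposited table the groups of Fyn Y531 overlapped, with differences of -0.50 and -0.85 at the 2 replicate numbers. The average of -0.68 there was past 1.5-fold (limma unadjusted p = 0.194). Fyn Y420 differed by 0.03 ± 0.07. The limma adjusted p was 0.997 for each of these 4.

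Groups did not overlap for 3 of the 6 peptides with signal in this comparison (Pyk2 Y402, Cbl Y371 and, barely, Fyn Y531), beside 22.1% of the 298. On the normexp scale, the 95% interval lay within 1.5-fold both ways for 4 of the 6 with signal (90.3% over the array), all but Pyk2 Y402 and PXN Y31. The median size of the difference was 0.27 for the 4 peptides with every spot above background and 0.07 for all 158 such peptides. In the comparisons with unstimulated cells it was 0.13 and 0.06 for IL-32 and 0.14 and 0.06 for IL-17, again for the 4 and the 158. Of the 4, Pyk2 Y402, PXN Y31 and FAK Y397 also had larger SEs (0.19, 0.22 and 0.14) than the median of 0.10 over the 298. The SE of Cbl Y371 was 0.10. The peptides were chosen with earlier results of these arrays known, and both comparisons with unstimulated cells share the unstimulated arrays. These medians of size are therefore a description. At the third listed spot, all 6 peptides with signal were higher after IL-32 than after IL-17, beside 76.6% of the 158. At the first spot 3 were, beside 27.2%, and at the second 1 was, beside 32.9%.

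**Figure D4:**
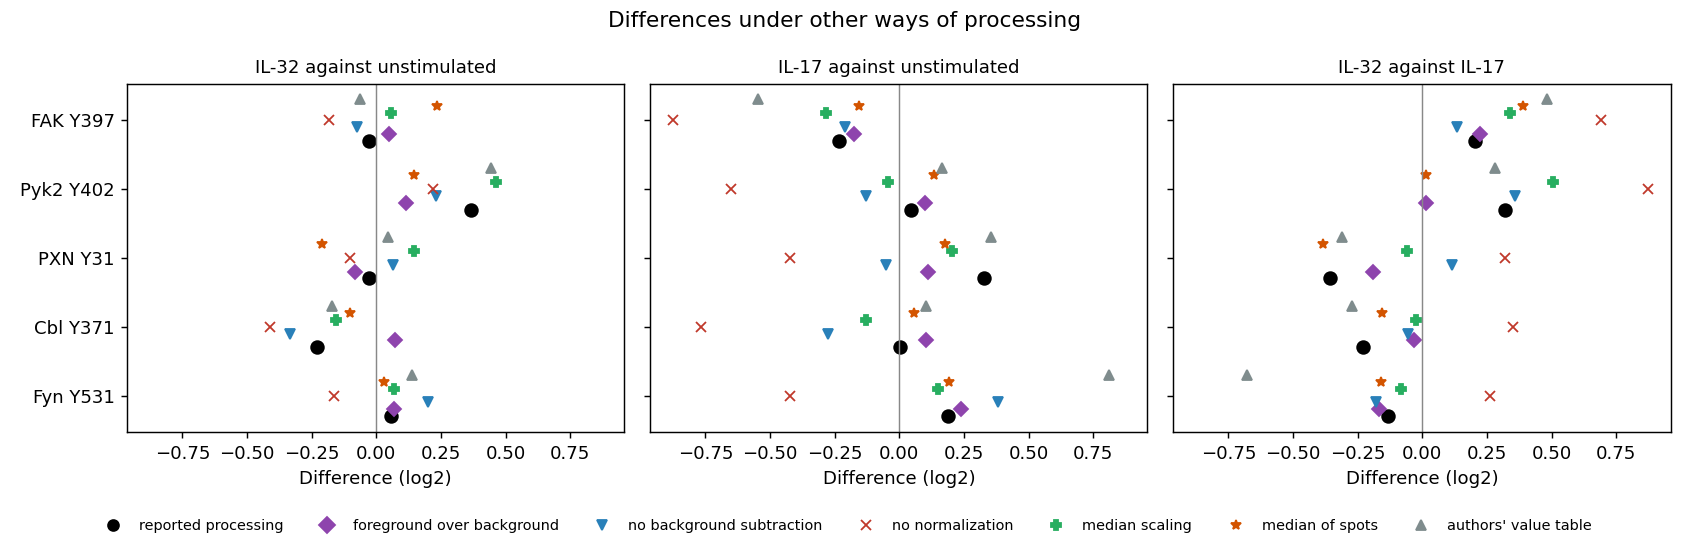
Log2 differences of 5 peptides in the 3 comparisons as reported (black circles) and under 6 other ways of processing, among them the authors' deposited table. FAK Y397 is higher after IL-32 than after IL-17 under all 7, whereas without normalization (crosses) all 5 peptides lie below 0 for IL-17 against unstimulated.

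Other proteins of the same signalling chain were taken from lists of kinases, adaptors and cytoskeletal proteins. The list of Src-family, Syk and related kinases held 7 peptides of Btk, CSK, Lyn, Src and Syk. In each of the 3 comparisons 0 passed in either direction. With each cytokine 4 values were higher and 3 lower than in unstimulated cells, and 3 were higher after IL-32 than after IL-17. The median was 0.05 for IL-32, beside -0.002 for all 298 peptides, and 0.04 for IL-17, beside 0.003. Its smallest p-values belonged to Btk Y551, the activation loop of a Tec-family kinase, at 0.07 ± 0.08 for IL-32 and 0.07 ± 0.08 for IL-17, and to Src S96, at 0.06 ± 0.08 for IL-32 and 0.08 ± 0.08 for IL-17. Syk Y525/6, the activation loop of the kinase that follows Fc receptors, differed by 0.05 ± 0.07 between IL-32 and IL-17. CSK Y184, from the kinase that phosphorylates the inhibitory tail of Src-family kinases, gave -0.07 ± 0.11 in the same comparison.

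The list of adaptors and phosphatases held 9 peptides of BCAP, BLNK, Grb2, PLCG1 and Shc1, and 0 passed in any comparison. After IL-32, 6 values were higher and 3 lower (median 0.06, beside -0.002 for all), and after IL-17 5 were higher and 4 lower (median 0.02, beside 0.003). BCAP, which links tyrosine kinases to PI3-kinase, gave 0.24 ± 0.11 at Y281 for IL-32. For IL-17 it gave 0.21 ± 0.11 at Y281 and 0.19 ± 0.16 at Y17. At the 2 replicate numbers these were 0.007 and 0.42 for Y281, and -0.01 and 0.40 for Y17. BLNK Y96, from a scaffold below Syk, was mostly below background, with 1 of 6 spots above it after IL-32 and 3 of 6 in each other group, and its values of -0.13 ± 0.10 for IL-32 and -0.10 ± 0.10 between the cytokines are read no further. PLCG1 Y771, from the phospholipase that tyrosine kinases activate, gave 0.14 ± 0.10 for IL-32 against IL-17, where 6 were higher and 3 lower (median 0.05).

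The list of the actin and microtubule skeleton held 5 peptides of Ezrin, STMN1, VASP and WASP, of which 2 had no spot above background. Here too 0 passed. With each cytokine 3 values were higher and 2 lower than in unstimulated cells, with medians of 0.02 for IL-32 and 0.04 for IL-17, and 2 were higher after IL-32 than after IL-17. WASP Y291, from a protein that starts actin branches, gave 0.28 ± 0.14 for IL-32, with 0.05 and 0.51 at the 2 replicate numbers. STMN1 S15, from a microtubule regulator, gave 0.12 ± 0.09 for IL-32 and -0.10 ± 0.09 for IL-17, and the 2 cytokines differed by 0.22 ± 0.09. Ezrin T566, from a linker of actin to the membrane, gave -0.14 ± 0.17 for IL-17, with 0.21 and -0.49 at the 2 replicate numbers.

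Lymphocyte signalling proteins, listed as those of other cells that use these kinases, gave 3 peptides of BLNK and CD28, all with spots above background and 0 past the threshold. With each cytokine 1 value was higher and 2 were lower, with medians of -0.02 for IL-32 and -0.03 for IL-17. CD28 Y206/9, from a co-receptor of T cells, gave 0.36 ± 0.24 for IL-17 and 0.14 ± 0.24 for IL-32. Its signs were opposite at the 2 replicate numbers, with -0.02 and 0.74 for IL-17 and -0.31 and 0.60 for IL-32. Beside BLNK Y96, given above, BLNK Y72 gave -0.12 ± 0.10 for IL-17 and was 0.10 ± 0.10 higher with IL-32 than with IL-17. Signal on such a peptide does not show that its protein was present, so these values do not measure other cells.

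Some peptides outside the set followed the kinases across the 6 arrays. Among 154 peptides with all spots above background, Pearson's r with FAK Y397 was highest for BLNK Y72 (0.952), LEF-1 S166 (0.901) and HIF1A T796 (0.829). For Pyk2 Y402 it was highest for IKK-beta Y199 (0.886), Jun S73 (0.842) and FLT3 Y589/91 (0.835). For Fyn Y531, the brighter of the 2 Fyn peptides, it was highest for Shc1 Y349/0 (0.747), FGFR1 Y463 (0.693) and Mos S25 (0.673). The median r over the 154 was 0.03, 0.01 and -0.004 for these 3 kinases. The 6 points share arrays and normalization, and the highest of 154 values is large by selection.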

How the data were processed

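Peptide phosphorylation was measured on 6 arrays, 2 per group, with groups and replicate numbers taken from the sample titles. The deposited intensities are, per the file headers, the mean foreground and mean local background of 900 spots per array in the green channel, not background-subtracted. No source used here names the scanner or image software. The authors' deposited value table holds a signal per peptide: every value above its floor of 0.01 equalled, within 0.1 percent, the mean of the 3 background-subtracted spots over a constant of the array (194 to 215 of 298 human peptides per array). The constant differed between arrays and its origin is not known here. Column medians were 0.468 and 0.513 for unstimulated, 0.567 and 0.487 for IL-17 and 0.480 and 0.494 for IL-32; the values were not centred and larger means brighter.

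Background was corrected with limma's normexp (offset 50), 2 non-human peptides were left out, spots were quantile-normalized, and the 3 spots were averaged. Groups were compared for 298 peptides by lmFit and eBayes of limma 3.58.1 in R 4.3.3. One fit held all 6 arrays, without a block, and had 3 residual and 2.8 prior degrees of freedom. Tests were two-sided, and p-values were adjusted by Benjamini-Hochberg over the 298, at a threshold of 0.05. The fit was tested on simulated data. The labels call the 2 arrays of a group biological replicates and do not say that equal numbers were run together. Alternatives covered the background correction, normalization, summary of spots, a filter on dim peptides, the block, the groups fitted, each array left out and the authors' table. Depth is signal over background here, and the number of arrays limits precision.

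All 7 peptides of the 6 proteins were named. From each related list the 2 peptides with the smallest unadjusted p per comparison and with signal in both groups were named, and 3 peptides most correlated with the brightest peptide of each of FAK, Pyk2 and Fyn. Members and lists were chosen with earlier results of these data known, and some proteins first listed are not reported here. Gene symbols came from a RefSeq gene table of GRCh38.p14. Peptide sequences were not used here.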

Additional observations from a re-analysis of the deposited data

How the results depend on the processing

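No peptide of the 298 passed the adjusted threshold under 21 of 21 alternatives for IL-32, under 20 for IL-17 and under 19 between the cytokines. Without normalization 293 passed for IL-17 and 4 between the cytokines, where the whole array was shifted, and with plain subtraction floored at 1, 1 passed between the cytokines. With the replicate number as a block 0 passed in each comparison, and the counts at an unadjusted p under 0.05 were 8 (IL-32), 4 (IL-17) and 10 (direct comparison), among them Cbl Y371 for IL-32, FAK Y397 and PXN Y31 for IL-17, and Cbl Y371 and PXN Y31 for the direct comparison. Deviations of arrays with the same number correlated at 0.18 (unstimulated and IL-17), 0.02 (unstimulated and IL-32) and 0.39 (IL-17 and IL-32). These correlations do not settle whether the arrays were paired. The labels state no pairing, so the reported fit held no block. Counts at the study's criteria, 0 as reported, reached 10 for IL-32 (no background subtraction), and 153 for IL-17 and 17 for the direct comparison (both without normalization). The peptides described here met them in 8 instances over all alternatives and comparisons. Without normalization they were 3 of the 7 for IL-17, beside 153 of 298, and 2 of the 7 between the cytokines, beside 17 of 298. At listed spot 2, PXN Y31 met them for IL-32, beside 4 of 298, and between the cytokines, beside 9 of 298. The last instance was Pyk2 Y402 for IL-32, at 0.68 without the unstimulated array of replicate 1. A difference cannot be changed by the block, by fitting 2 groups or by filtering dim peptides. Causes of the reversals below were not tested.

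The following differences (log2) changed sign. Without background subtraction, PXN Y31 was at 0.065 for IL-32, -0.051 for IL-17 and 0.12 between the cytokines, and for IL-17 Cbl Y371 was at -0.28 and Pyk2 Y402 at -0.13. Plain subtraction put Cbl Y371 at -0.015 for IL-17. Foreground over background put Cbl Y371 at 0.074 and FAK Y397 at 0.048 for IL-32, and Fyn Y420 at -0.0030 between the cytokines. Without normalization, Fyn Y420 was at -0.18 and Fyn Y531 at -0.16 for IL-32. For IL-17 it gave -0.77 (Cbl Y371), -0.54 (Fyn Y420), -0.42 (Fyn Y531), -0.42 (PXN Y31) and -0.65 (Pyk2 Y402), and between the cytokines 0.35 (Cbl Y371), 0.26 (Fyn Y531) and 0.32 (PXN Y31). Median scaling gave FAK Y397 0.057 and PXN Y31 0.14 for IL-32, and Cbl Y371 -0.13 and Pyk2 Y402 -0.044 for IL-17. Quantile normalization within a listed spot gave FAK Y397 0.017 and PXN Y31 0.025 for IL-32, and Cbl Y371 -0.094 for IL-17. The median of the spots gave FAK Y397 0.24 for IL-32 and Fyn Y420 -0.043 between the cytokines. The authors' deposited table gave PXN Y31 0.044 for IL-32 and Fyn Y420, at its floor on 1 array, -0.64 for IL-17.

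Single listed spots also turned signs. Spot 1 put FAK Y397 at 0.16 for IL-32 and 0.065 for IL-17. Spot 2 gave -0.18 (Fyn Y420), -0.35 (Fyn Y531) and -0.060 (Pyk2 Y402) for IL-32, -0.17 (Cbl Y371), -0.074 (Fyn Y420) and -0.020 (Pyk2 Y402) for IL-17, and -0.11 (Fyn Y420) and -0.040 (Pyk2 Y402) between the cytokines. Spot 3 gave 0.23 (Cbl Y371), 0.18 (FAK Y397) and 0.63 (PXN Y31) for IL-32, -0.022 (Cbl Y371) and -0.0094 (Pyk2 Y402) for IL-17, and 0.25 (Cbl Y371), 0.27 (Fyn Y531) and 0.15 (PXN Y31) between the cytokines. Leaving out single arrays gave -0.18 to 0.14 for FAK Y397, -0.25 to 0.21 for PXN Y31 and -0.032 to 0.15 for Fyn Y531 with IL-32, and -0.061 to 0.073 for Cbl Y371 and -0.23 to 0.34 for Pyk2 Y402 with IL-17. It changed no other sign, and 0 to 0 peptides of the array passed in each comparison. A group left with 1 array was assumed to vary like the others. Low signal over background limits Fyn Y420 and Crk Y221 most.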
